A study of Mus musculus with 20 samples.

Results

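The kidney makeup of mice killed 14 d after short ischemia (IRI short 14 d) was compared with that of control mice, cluster by cluster. The comparison takes in every cell of 8 libraries: 2 of IRI short 14 d, with the library names IRF8 and IRF10, and 6 of control, with the names norm1 to norm5 and Scl. They hold 53307 of the 113579 cells that the authors sorted into 18 clusters, namely 15435 cells of IRI short 14 d and 37872 control cells. Members were chosen by the treatment label of each cell and by no measured value.

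The mice were male C57Bl/6J animals of 10 to 12 weeks. In IRI short the pedicles of both kidneys were clamped for 23 min, and in IRI long, used below at 14 d, for 30 min. Kidneys were taken at 1, 3 or 14 d and digested into single cells for droplet sequencing. Control mice carry the label Control with no time, and whether they had sham surgery is not given in the sources used here for this set. The labels count 6 mice for the 6 IRI short libraries. For the control libraries they name no mice, so p-values measure the spread between libraries, which may in part be technical.

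The proximal tubule (PT) takes back most of the filtered salt, glucose and water, and its straight S3 segment in the outer medulla is known as the part of the nephron most easily harmed by ischemia. The loop of Henle (LOH), the distal convoluted tubule (DCT) and the collecting duct with its principal (PC) and intercalated cells (IC) follow downstream. After ischemia, granulocytes and monocytes enter the kidney first, whereas macrophages and lymphocytes dominate later, and tubule cells that survive divide to refill the tubule. The comparison with control at 14 d addresses how much of the kidney's cell makeup still differs once this repair has had time to run.

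IRF8 holds 4518 cells and IRF10 10917. Control libraries hold from 2272 cells in norm3 to 14320 in Scl. The tables give a cluster name and a treatment for each cell but no expression values, so the names could not be checked against marker genes. Cell barcodes set norm5 apart from the other control libraries: the number of barcodes in common implies a small set of possible barcodes among norm1 to norm4 and Scl, and a larger one, in common with all IRI libraries, for norm5. IRF10 has 20 barcodes in common with norm5 and 0 to 7 with each of the other control libraries, and IRF8 has 7 and 0 to 1. The libraries IRF8 and IRF10 share 16. What lies behind the 2 sets is not labelled, so within the controls of the small set the barcode set and the treatment cannot be told apart, and values against norm5 alone stand beside the results.

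In IRI short 14 d, 10 of 18 clusters (55.6%) differed from control in limma on the logit of the share of all cells, at an adjusted p under 0.05. Granulocytes, macrophages, monocytes, B cells and the endothelial cluster Endo were higher, 7 clusters in all, while the proximal tubule clusters PT S1 and PT S3 and the intercalated cells were lower. The remaining 8 clusters did not pass. In 11 of 18 clusters (61.1%) the shares as counted put both IRI short 14 d libraries beyond every control library, on the same side. One of these is Mono_2, with 10 cells. The logit is the natural log of the odds, with 0.5 cells added, and the limma fit takes its spread from all 18 libraries with 7 group means. At an unadjusted p under 0.05, 13 clusters differed.

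**Figure D1:**
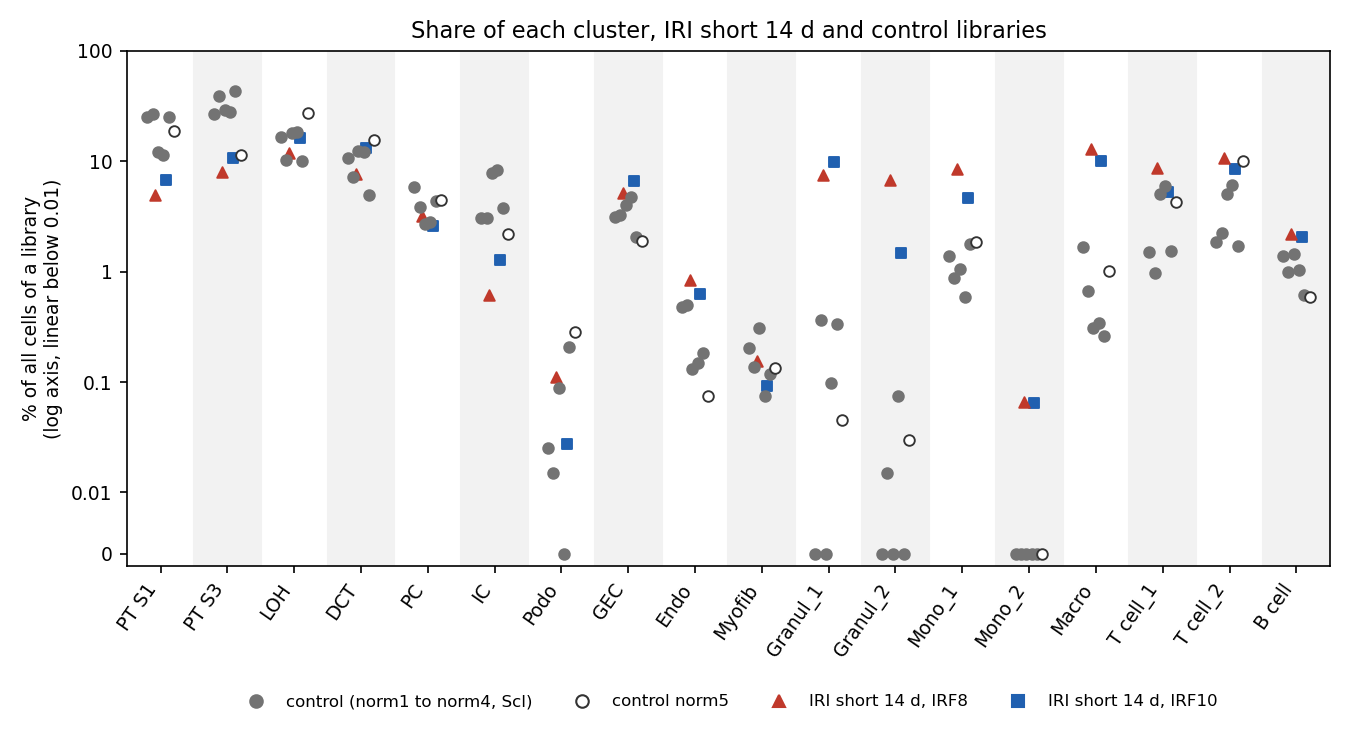
Share of each of the 18 clusters in percent of all cells of a library, on a log axis that is linear below 0.01. Each point is 1 library: filled circles are control libraries of the small barcode set, the open circle is norm5, the triangle is IRF8 and the square is IRF10. Both IRI short 14 d libraries lie above all 6 control libraries in Granul_1, Granul_2, Mono_1, Macro, GEC, Endo and B cell, and below them in PT S1, PT S3 and IC, while Mono_2 has 3 and 7 cells against 0.

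PT S1, the convoluted segment with the highest rate of reabsorption, made up 4.94% of the cells in IRF8 and 6.73% in IRF10. In control it was 11.3% in norm4, 12.2% in norm3, 18.9% in norm5, 24.9% in Scl, 25.3% in norm1 and 27.0% in norm2. Both IRI short 14 d libraries thus lay below the lowest control library, and the mean of 5.83% ± 1.27 (SD, n = 2) was 3.41-fold lower than the control mean of 19.9% ± 6.91 (n = 6). On the logit scale PT S1 fell by 1.35 (standard error 0.38, limma adjusted p = 0.00611).

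PT S3, the straight segment, was 8.01% of IRF8 and 10.8% of IRF10. Control libraries held 11.5% in norm5, 27.0% in norm1, 28.1% in norm4, 29.3% in norm3, 38.6% in norm2 and 43.2% in Scl. The groups did not overlap, but norm5 lay close to IRF10 and far from the other control libraries. The difference was −1.34 on the logit scale (standard error 0.43, limma adjusted p = 0.0122), from a mean of 29.6% ± 11.0 (SD, n = 6) to 9.40% ± 1.96 (n = 2).

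With norm5 as the only control, PT S1 and PT S3 parted. PT S1 was still 3.23-fold lower than in norm5 (logit difference −1.33, limma adjusted p = 0.0352), whereas PT S3 was 1.22-fold lower (−0.23, adjusted p = 0.733). Here limma has 1 control library and assumes that it varies like the other groups. A fit of all libraries with the barcode set as a term gave the same differences, at adjusted p = 0.0670 for PT S1 and 0.749 for PT S3. Without IRF8, neither cluster passed (adjusted p = 0.102 for PT S1 and 0.131 for PT S3).

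Intercalated cells, which secrete acid or base into the urine, were 0.620% of IRF8, which is 28 cells, and 1.26% of IRF10, which is 138 cells. The control libraries held 2.19% in norm5, 3.06% in norm1, 3.06% in norm2, 3.74% in Scl, 7.79% in norm3 and 8.31% in norm4. The mean of IC was 4.98-fold lower than that of control, from 4.69% ± 2.65 (SD, n = 6) to 0.942% ± 0.456 (n = 2), with a logit difference of −1.57 (standard error 0.41, limma adjusted p = 0.00354). Against norm5 alone it was 2.33-fold lower and did not pass (−0.91, adjusted p = 0.133, and 0.205 with the barcode set as a term), nor did it pass without IRF8 (−1.22, adjusted p = 0.102).

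The other nephron clusters overlapped with control. LOH, which builds the medullary salt gradient, was 11.9% of IRF8 and 16.3% of IRF10 against 10.1 to 27.5% in control (median 17.3%), with a logit difference of −0.17 (95% interval −0.92 to 0.59). DCT, where salt reabsorption is fine-tuned, was 7.72 and 13.1% against 4.90 to 15.4% (median 11.3%), a difference of 0.03 (−0.71 to 0.77). In both clusters norm5 was the highest control library and lay above IRF8 and IRF10. Against norm5 alone the differences were −0.85 for LOH and −0.48 for DCT.

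Principal cells, which take up water and sodium, were 3.17% of IRF8 and 2.58% of IRF10. Their control libraries ranged from 2.68 to 5.85% (median 4.12%), and the difference was −0.31 (−1.03 to 0.41). Against norm5 alone, which held 4.41%, it was −0.45. Podocytes, the cells that hold the glomerular filter, were few: 5 cells in IRF8, 3 in IRF10, and in control between 0 of 4056 cells in norm4, which allows a share of up to 0.0740%, and 0.285% in norm5 (difference −0.03, 95% interval −1.53 to 1.46). The podocyte difference was −1.55 against norm5 alone.

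Glomerular endothelial cells (GEC) were 5.11% of IRF8 and 6.57% of IRF10, and in control 1.89% in norm5, 2.06% in Scl, 3.11% in norm1, 3.22% in norm2, 4.01% in norm3 and 4.71% in norm4. Both libraries lay above all control libraries, but the difference of 0.68 (standard error 0.32) did not pass (limma adjusted p = 0.0620). Against norm5 alone it was 1.16 (adjusted p = 0.0194, and 0.0448 with the barcode set as a term), and under the centred log-ratio it turned to −0.27 (adjusted p = 0.462).

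Endo, the remaining endothelial cells, was 0.841% of IRF8 (38 cells) and 0.623% of IRF10 (68 cells). In control it was 0.0750% in norm5, 0.132% in norm3, 0.148% in norm4, 0.182% in Scl, 0.481% in norm1 and 0.499% in norm2. The mean was 2.90-fold higher, 0.732% ± 0.154 (SD, n = 2) against 0.253% ± 0.187 (n = 6), and Endo rose by 1.24 on the logit scale (standard error 0.42, limma adjusted p = 0.0184). The call was lost without IRF8 (1.08, adjusted p = 0.147) or IRF10 (adjusted p = 0.0563), with only these 8 libraries in the fit (adjusted p = 0.0585) and under the centred log-ratio (0.31, adjusted p = 0.577). Myofibroblasts (Myofib), the contractile matrix-producing cells of scar, were 7 cells or 0.155% of IRF8 and 10 cells or 0.0916% of IRF10, within the control range of 0.0740 to 0.308% (difference −0.22, 95% interval −0.96 to 0.52).

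The largest differences on the logit scale were those of the granulocytes, short-lived phagocytes that are rare in a healthy kidney. Granul_1 was 7.55% of IRF8 and 9.85% of IRF10, while in control it was 0.363% in norm2, 0.335% in Scl, 0.0986% in norm4 and 0.0450% in norm5. No cell was found among the 3949 of norm1 or the 2272 of norm3, which allows shares of up to 0.0760% and 0.132%, limits that cover counting error only. The mean of 8.70% ± 1.63 (SD, n = 2) was 62.0-fold above the control mean of 0.140% ± 0.166 (n = 6), and the logit difference was 4.81 (standard error 0.66, limma adjusted p = 5.04e-06).

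Granul_2 was 6.73% of IRF8 (304 cells, exact 95% binomial interval 6.02 to 7.50%) and 1.47% of IRF10 (161 cells, 1.26 to 1.72%). Among all 37872 control cells there were 6 cells of Granul_2, with 3 in norm4, 2 in norm5 and 1 in norm2. Its mean of 4.10% ± 3.72 (n = 2) compares with 0.0198% ± 0.0291 (n = 6), and it rose by 5.09 on the logit scale (standard error 0.59, limma adjusted p = 1.39e-06). The 2 libraries differed 4.56-fold in this cluster, more than in any other cluster with over 10 cells in each, while both lay far above control.

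Macrophages (Macro), which clear dead cells and direct repair, were 12.9% of IRF8 and 10.1% of IRF10. The control libraries held 0.258% in Scl, 0.308% in norm3, 0.345% in norm4, 0.666% in norm2, 1.01% in norm5 and 1.67% in norm1. This was a 16.2-fold difference of the means, 11.5% ± 1.92 (SD, n = 2) against 0.709% ± 0.550 (n = 6). The logit difference was 3.11 (standard error 0.41, limma adjusted p = 4.05e-06). Against norm5 alone Macro was 11.4-fold higher (logit difference 2.54). In both IRI short 14 d libraries Macro was the largest of the 8 immune clusters.

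Mono_1, the larger monocyte cluster, was 8.54% of IRF8 and 4.63% of IRF10 against 0.592 to 1.86% in the 6 control libraries (median 1.22%), with norm5 the highest. The mean was 5.23-fold higher and the logit difference 1.73 (standard error 0.35, limma adjusted p = 0.000492). With the barcode set as a term it was 1.27 and just missed the threshold (adjusted p = 0.0508), whereas against norm5 alone it passed (adjusted p = 0.0235).

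Mono_2 had 3 cells in IRF8, 7 in IRF10 and 0 in any control library. Over the groups this is 10 of 15435 cells against 0 of 37872 cells. By library, a count of 0 allows up to 0.0760% in norm1, 0.132% in norm3 and 0.0740% in norm4, above the 0.0664% of IRF8 and the 0.0641% of IRF10, so a difference from these 3 control libraries was not detectable at this depth. The limma call (adjusted p = 0.00237) was kept with 0.1 or 1 cell added in place of 0.5. It was lost on the arcsine scale (adjusted p = 0.175), where no cells are added.

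The lymphocyte clusters had smaller differences. T cell_1 was 8.72% of IRF8 and 5.20% of IRF10, and in control 0.968% in norm2, 1.52% in norm1, 1.55% in Scl, 4.28% in norm5, 5.06% in norm3 and 5.97% in norm4, so that IRF10 lay within the control range. T cell_2 was 10.8% of IRF8 and 8.54% of IRF10 against 1.69 to 9.98% in control, where norm5 was the highest and lay above IRF10. Both had logit differences of about the same size, 1.00 (95% interval 0.07 to 1.93) and 1.03 (0.05 to 2.02), and neither passed (limma adjusted p = 0.0597 for both). Both passed as higher with the arcsine, with 1 cell added, without norm4 and without norm5, and T cell_1 also without norm3. Against norm5 alone the differences were 0.48 and −0.04.

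B cells, which make antibodies, were 2.19% of IRF8 and 2.07% of IRF10, while the control libraries ranged from 0.585% in norm5 to 1.45% in norm3 (median 1.01%). The groups did not overlap and B cells rose by 0.81 on the logit scale (standard error 0.34, limma adjusted p = 0.0472). This call was lost without IRF8, IRF10, Scl, norm2 or norm5, and with only these 8 libraries in the fit, at adjusted p up to 0.184, and the difference turned to −0.12 under the centred log-ratio. It was kept against norm5 alone (1.30, adjusted p = 0.0194).

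The centred log-ratio scales each cluster by the geometric mean of the clusters of its library instead of by all cells. It moved the cluster differences down by a median of 0.93, and the 10 calls under it split into 3 higher and 7 lower clusters, against 7 and 3 on the logit scale. PT S1, PT S3, IC, Granul_1, Granul_2 and Macro passed under both. Under the centred log-ratio LOH (−1.06), DCT (−0.89), PC (−1.22) and Myofib (−1.15) also passed as lower, and Mono_1, Mono_2, Endo and B cell did not pass. Shares are tied to one another, so fewer cells of one kind and more cells of the others cannot be told apart here.

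Immune cells together were 57.4% of IRF8 and 42.0% of IRF10, against 6.11 to 17.8% in control. The means were 49.7% ± 10.9 (SD, n = 2) and 10.8% ± 4.83 (n = 6), with norm5 the control library with the highest fraction. For groups of clusters the test was a two-sided exact permutation test, in which 2 against 6 libraries can be divided in 28 ways and the smallest possible p is 0.0357. The immune fraction reached this value (difference 38.9 points, exact permutation p = 0.0357), but not after adjustment over 6 classes (adjusted p = 0.0536).

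Myeloid cells were 35.7% of IRF8 and 26.2% of IRF10 against 1.11 to 3.06% in control, a difference of 28.8 points. Lymphoid cells were 21.7 and 15.8% against 3.85 to 14.8%, a difference of 10.0 points that shrank to 3.91 points against norm5. The lymphoid difference was 4.86 points with T cell_2 left out. With the names of a second annotation, described below, it was 5.45 points and the groups overlapped. Endothelial and stromal cells were 6.11 and 7.28% against 2.10 to 4.93%, a difference of 3.11 points. Each of the 3 classes had an exact permutation p of 0.0357 (adjusted p = 0.0536).

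PT cells together were 12.9% of IRF8 and 17.5% of IRF10, and 30.3 to 68.1% in control, with norm5 the lowest. The difference of the means was −34.3 points (exact permutation p = 0.0714, adjusted p = 0.0857), and against norm5 it was −15.1 points. With the names of the second annotation, PT cells were 17.4% of IRF8 and 22.2% of IRF10 against 34.9 to 66.7% in control. Epithelial cells outside the PT were 23.5 and 33.2% against 23.3 to 49.8% (difference −7.67 points, exact permutation p = 0.357), a difference that was −2.81 points without IRF8, −12.5 without IRF10, −4.93 without norm5 and −2.14 with cells pooled. None of the 6 classes passed after adjustment, 4 were under 0.05 unadjusted, and limma on the logit passed 4, namely immune, myeloid, lymphoid and PT cells. The 4 classes under 0.05 unadjusted all had the smallest possible exact permutation p of 0.0357, which adjustment over 6 turned to 0.0536. Full separation of the groups was thus not enough to pass, and not passing does not show that the classes are alike.

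**Figure D2:**
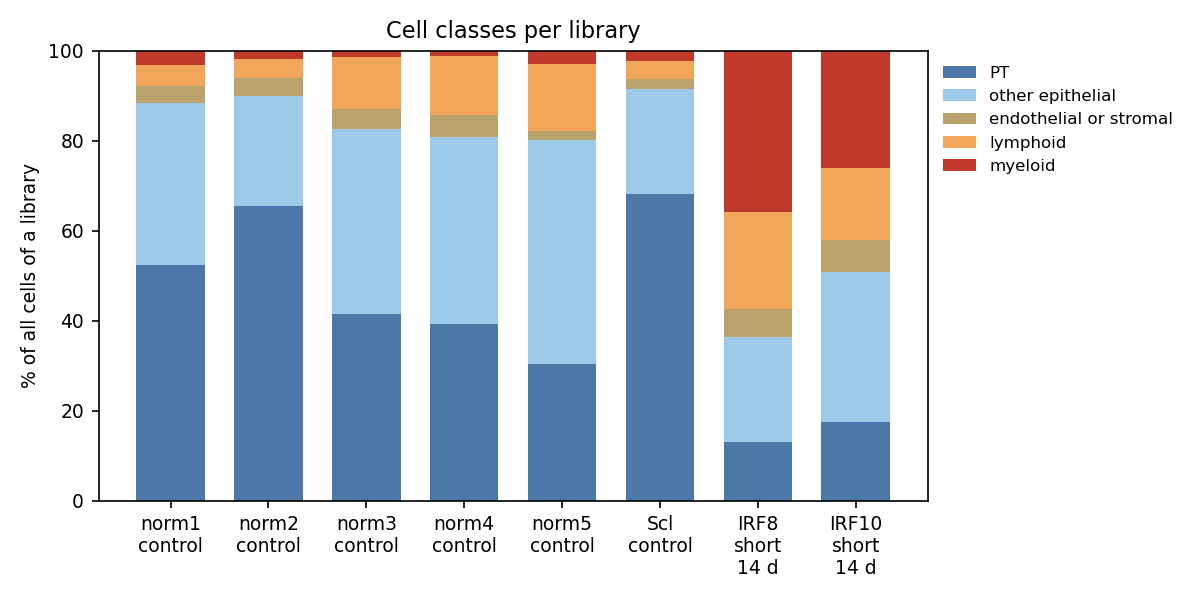
Cell classes in percent of all cells of a library, stacked to 100%, for the 6 control libraries and the 2 libraries of IRI short 14 d. The myeloid part is at most 3.06% in control, 35.7% in IRF8 and 26.2% in IRF10, and the PT part is 30.3 to 68.1% in control, 12.9% in IRF8 and 17.5% in IRF10.

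To see what remains when the immune fraction does not enter the denominator, the 8 immune clusters were taken as shares of immune cells and the 10 other clusters as shares of non-immune cells. Of the 18 clusters, 5 (27.8%) differed from control, all of them higher: GEC, Endo, Granul_1, Granul_2 and Macro. PT S1 was 11.6% of the non-immune cells in both IRF8 and IRF10, below the 13.2 to 28.7% of control, with a logit difference of −0.73 that did not pass (limma adjusted p = 0.114). PT S3 was 18.8 and 18.6% against 14.0% in norm5 and 29.3 to 46.1% in the other control libraries (−0.70, adjusted p = 0.186). Intercalated cells were 1.46 and 2.18% against 2.66 to 9.68% (−0.99, adjusted p = 0.0662).

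Among non-immune cells GEC was 12.0% of IRF8 and 11.3% of IRF10 against 2.20 to 5.49% in control. It rose by 1.33 (standard error 0.34, limma adjusted p = 0.00396). Endo was 1.98 and 1.07% against 0.0912 to 0.532% and rose by 1.83 (standard error 0.43, limma adjusted p = 0.00226). Both passed against norm5 alone and with the barcode set as a term, with differences of 1.72 and 2.70, and both missed the threshold without IRF8 (adjusted p = 0.0733 for each). DCT was 18.1 and 22.5% against 5.22 to 18.8% and did not pass (0.71, adjusted p = 0.112).

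Among immune cells Granul_1 was 13.1% of IRF8 and 23.5% of IRF10 against 0 to 5.94% in control (3.31, limma adjusted p = 0.00226). Granul_2 was 11.7 and 3.51% against 0 to 0.521% (3.53, limma adjusted p = 9.15e-06). Macro was 22.4 and 24.2%, with norm1 close below at 21.4% and the other control libraries between 2.38 and 10.9%. The difference of 1.58 passed (limma adjusted p = 0.0127), but not without IRF8 or IRF10, with only these 8 libraries (adjusted p = 0.0626) or with the barcode set as a term (adjusted p = 0.119). Mono_1, higher as a share of all cells, was 14.9 and 11.0% of immune cells, inside the control range of 4.17 to 28.7% (difference 0.06, 95% interval −0.84 to 0.97).

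T cell_1, T cell_2 and B cell had the opposite sign as shares of immune cells, with differences of −0.82, −0.88 and −0.87, and did not pass (limma adjusted p = 0.0931, 0.0907 and 0.0931). Both IRI short 14 d libraries lay below every control library in T cell_1 (15.2 and 12.4% against 15.8 to 42.0%) and T cell_2 (18.8 and 20.3% against 23.6 to 56.1%). Against norm5 alone, T cell_2 passed as lower (−1.66, adjusted p = 0.00838), T cell_1 did not pass (−0.69, adjusted p = 0.248), and B cell turned to 0.28 (adjusted p = 0.629).

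**Figure D3:**
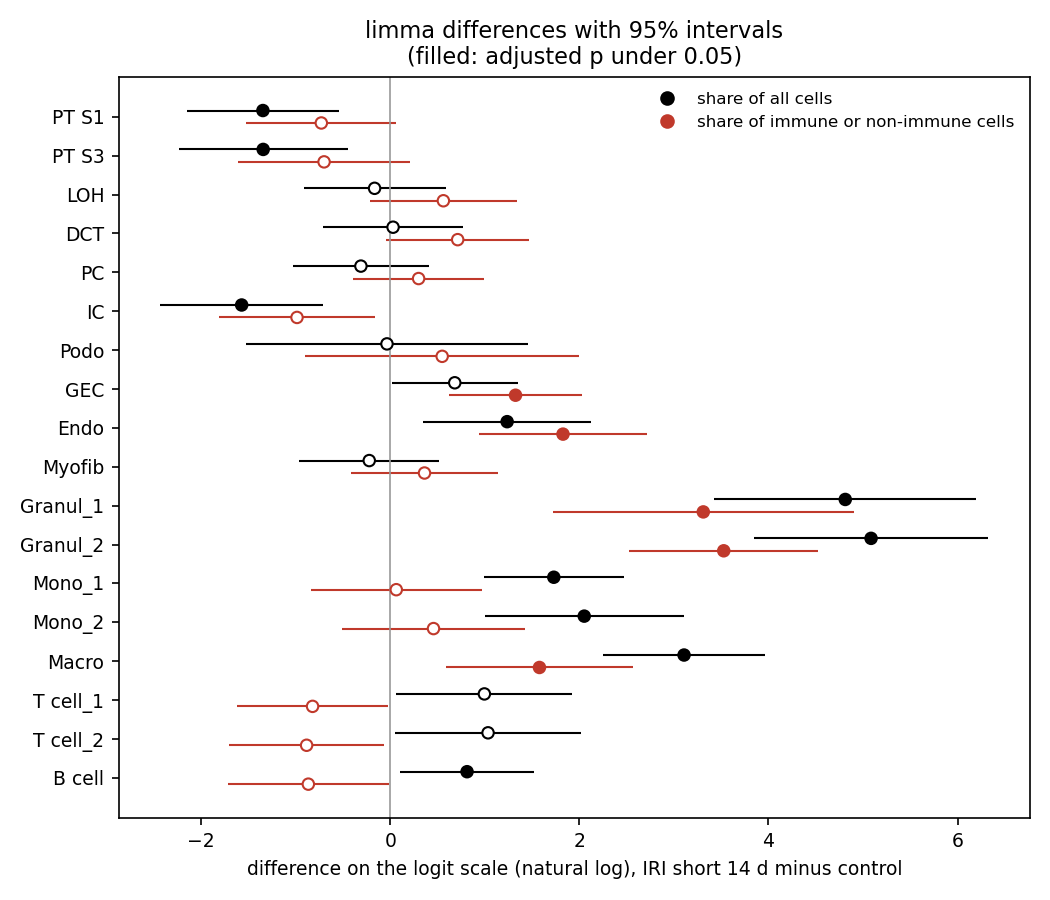
Difference of IRI short 14 d minus control on the logit scale for each cluster, with 95% intervals from limma. Black marks are shares of all cells and red marks shares of immune or of non-immune cells. Filled marks have an adjusted p under 0.05: 10 clusters as shares of all cells, and GEC, Endo, Granul_1, Granul_2 and Macro within their compartment.

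A set of 6 ratios between clusters was compared in the same way. The PT was 35.6% of the tubule cells (PT, LOH, DCT, PC and IC) of IRF8 and 34.5% of those of IRF10. Control libraries held 38.0% in norm5, 48.7% in norm4, 50.3% in norm3, 59.2% in norm1, 72.8% in norm2 and 74.6% in Scl. Both libraries were below all 6, with a difference of the means of −22.2 points, and of −2.92 points against norm5 (exact permutation p = 0.0714, adjusted p = 0.143). The share of PT S1 among PT cells was nearly equal in IRF8 and IRF10, 38.1 and 38.4%, and lay in the middle of the control range of 28.7 to 62.1% (exact permutation p = 0.821). Its difference of −2.78 points turned to 1.44 without norm5, the highest control library, and was −1.31 without norm1, −5.11 without norm3 and −5.25 without norm4.

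Intercalated cells were 16.4% of the collecting duct cells (IC and PC) in IRF8 and 32.9% in IRF10, below the control range of 33.2% in norm5 to 74.9% in norm4 (difference −26.6 points, and −8.57 against norm5, exact permutation p = 0.0714, adjusted p = 0.143). LOH was 50.8 and 49.0% of the tubule cells outside the PT, against 42.2 to 45.9% in norm1 to norm4 and Scl and 55.5% in norm5 (exact permutation p = 0.321). GEC was 85.9 and 91.3% of endothelial cells against 86.6 to 97.0% (exact permutation p = 0.250), with a difference of −3.90 points that was −1.17 without IRF8 and −6.63 without IRF10. The last 2 ratios overlapped with control, whereas that of intercalated cells did not.

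Myeloid cells were 62.2% of the immune cells of IRF8 and 62.3% of those of IRF10. In control they were 7.81% in norm4, 10.5% in norm3, 16.5% in norm5, 31.4% in norm2, 38.2% in Scl and 39.2% in norm1. The 2 libraries were alike in this ratio, although immune cells were 57.4% of one and 42.0% of the other, and both lay above all control libraries (difference 38.3 points, exact permutation p = 0.0357, adjusted p = 0.143). It was the 1 ratio under 0.05 unadjusted, and none of the 6 passed after adjustment. This ratio was already at the smallest possible p, so full separation of the groups was not enough to pass. Granulocytes were 39.9% of the myeloid cells in IRF8 and 43.3% in IRF10, against 0 to 19.7% in control, where monocytes were 45.5 to 77.4%.

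**Figure D4:**
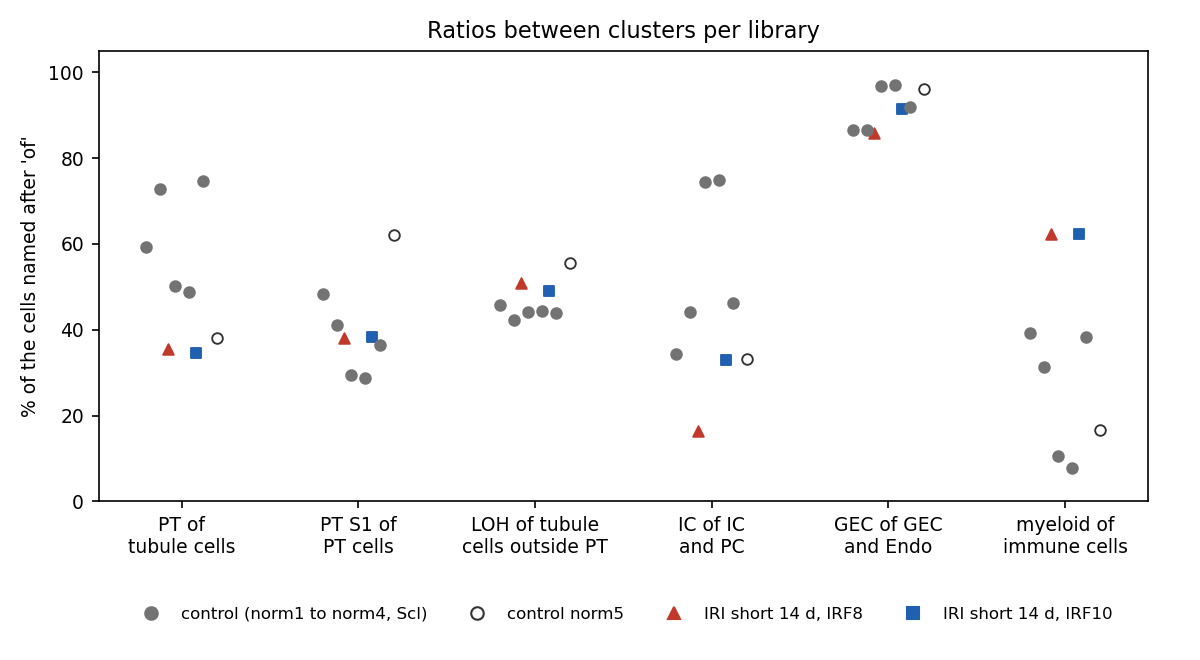
Ratios between clusters in percent, 1 point per library, with control as circles (norm5 open), IRF8 as a triangle and IRF10 as a square. The PT share of tubule cells in norm5 (38.0%) is close to that of IRF8 and IRF10 (35.6 and 34.5%), and the myeloid share of immune cells is 62.2 and 62.3% in IRI short 14 d and at most 39.2% in control.

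Between IRF8 and IRF10 the exact 95% binomial intervals were apart in 12 of 18 clusters, so that the libraries differ by more than counting error. IRF8 had the higher shares of Granul_2, Mono_1, Macro, T cell_1 and T cell_2. IRF10 had the higher shares of PT S1, PT S3, LOH, DCT, IC, GEC and Granul_1. The intervals overlapped for PC, Podo, Endo, Myofib, Mono_2 and B cell.

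To place IRI short 14 d among the other injured kidneys, it was compared with the earlier days after short ischemia and with long ischemia at the same day. These comparisons use the same 2 libraries and the same limma fit. Against IRI short 1 d, 1 of 18 clusters (5.56%) passed and 4 were under 0.05 unadjusted. Mono_2 was 1.15% ± 0.557 (SD, n = 2) at 1 d, against 0.0664% in IRF8 and 0.0641% in IRF10 at 14 d, and fell by 2.71 on the logit scale (standard error 0.61, limma adjusted p = 0.00569). No cluster passed in limma without IRF10, with 2 under 0.05 unadjusted.

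Against IRI short 3 d, again 1 of 18 clusters (5.56%) passed. Myofibroblasts were 0.734% in IRF11 and 1.04% in IRF3 at 3 d and 0.155 and 0.0916% at 14 d, and fell by 1.96 (standard error 0.43, limma adjusted p = 0.00442). None passed in limma without IRF10 (2 were under 0.05 unadjusted), and 2 passed without IRF3. PT S1 was 3.22% ± 0.987 (SD, n = 2) at 1 d, 4.32% ± 3.04 at 3 d and 5.83% ± 1.27 at 14 d, and IC 0.748% ± 0.282, 0.850% ± 0.371 and 0.942% ± 0.456, differences that did not pass in either comparison. Macro was 6.77% ± 0.441, 14.2% ± 1.36 and 11.5% ± 1.92 on the same days.

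Against IRI long 14 d, 6 of 18 clusters (33.3%) passed. LOH was 14.1% ± 3.10 in IRI short 14 d against 3.50% ± 1.10 in IRI long 14 d (logit difference 1.52), DCT 10.4% ± 3.79 against 2.64% ± 0.746 (1.44) and PC 2.87% ± 0.412 against 0.552% ± 0.139 (1.67). IC was higher as well, 0.942% ± 0.456 against 0.161% ± 0.00705 (1.68). Every IRI short 14 d library lay above both IRI long libraries in these 4 clusters downstream of the PT.

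Myofibroblasts were also higher than in IRI long 14 d, at 1.54 on the logit scale, but the IRI long libraries IRF9 and IRF12 hold only 1 and 2 such cells. Granul_2 was lower, 6.73 and 1.47% against 22.9% in IRF9 and 28.9% in IRF12 (−2.36). All 6 had a limma adjusted p of 0.0130, and the number that passed was 0 without IRF12 (6 under 0.05 unadjusted), 2 without IRF10, 3 without IRF9 and 5 without IRF8. PT S1 (5.83% against 2.41%) and PT S3 (9.40% against 7.30%) did not pass, and immune cells were 49.7% of IRI short 14 d and 79.8% of IRI long 14 d.

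Shares of non-immune cells were not tested for this comparison. On this scale the ratio of the means was smaller for LOH (27.98% ± 0.0775 in IRI short 14 d against 17.2% ± 4.50 in IRI long 14 d). It was smaller for DCT as well (20.3% ± 3.11 against 13.0% ± 2.99). PC was 5.94% ± 2.11 against 2.72% ± 0.541 and IC 1.82% ± 0.511 against 0.797% ± 0.00803. PT S3 had the opposite order on this scale, with 18.7% ± 0.162 against 36.6% ± 17.7 (SD, n = 2 each), and PT S1 was 11.6% against 11.8%.

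**Figure D5:**
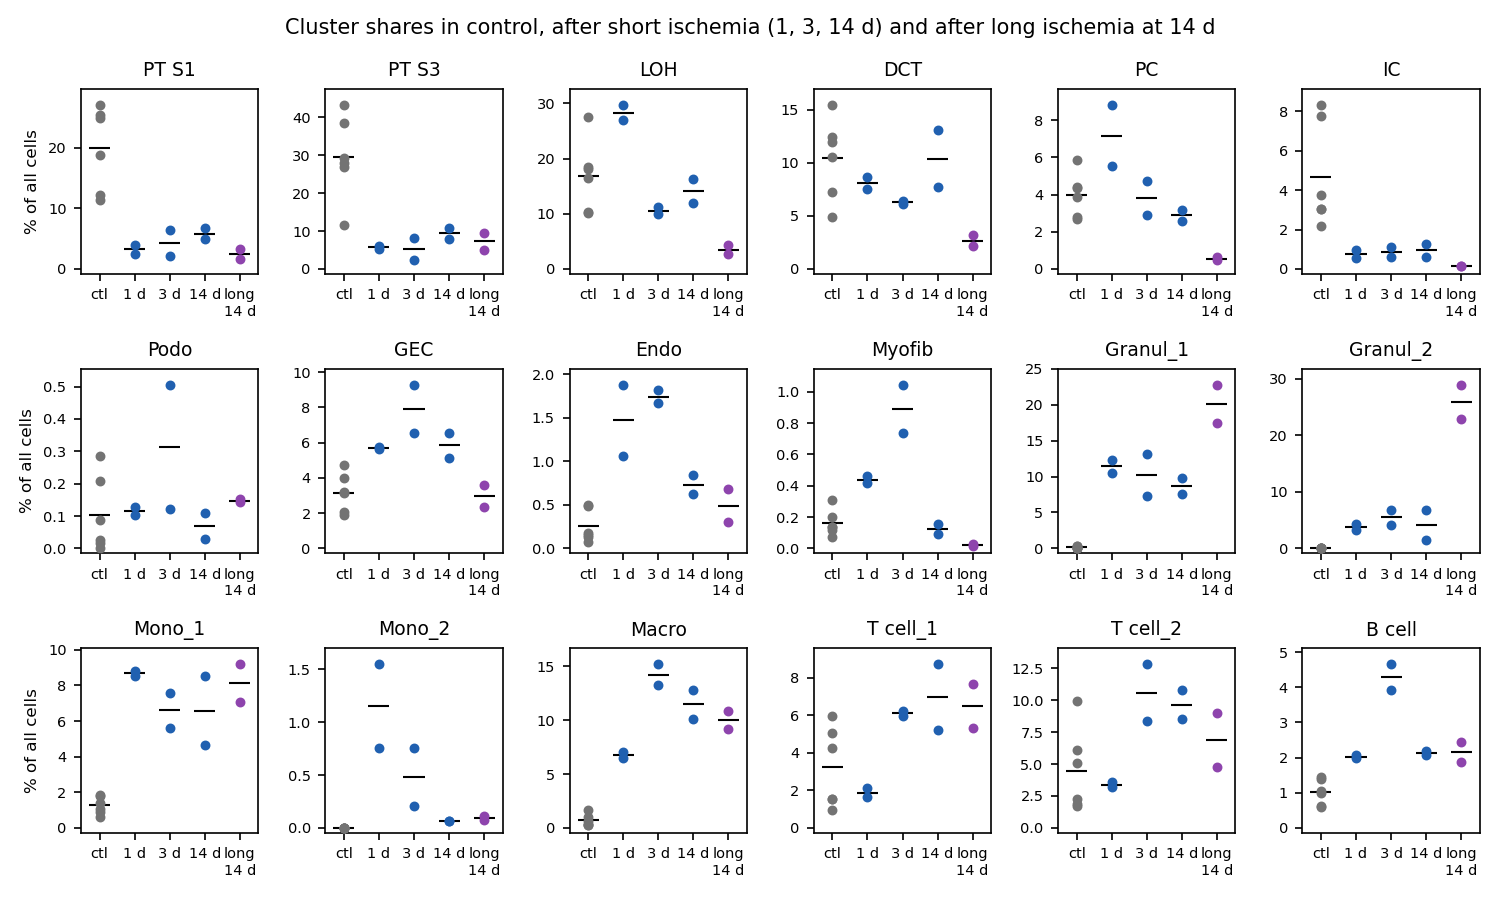
Share of each cluster in percent of all cells of a library (linear axes, each from 0), in control (ctl), at 1, 3 and 14 d after short ischemia and at 14 d after long ischemia. Points are libraries and bars group means, with n = 6 in control and n = 2 elsewhere. LOH, DCT, PC and IC are lower at 14 d after long than after short ischemia, and Granul_2 is higher, while Mono_2 and Myofib are lower at 14 d than at 1 d and 3 d after short ischemia, respectively.

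Some cluster names do not hold in the second annotation that the authors deposited for the same cells. When clusters were grouped into classes, 83.0% of the cells of IRF8 and 85.2% of those of IRF10 had the same class in both, against 88.2 to 96.1% in the control libraries, with norm5 the lowest. With the second annotation's cluster Fibro counted as myeloid, these were 91.0% in IRF8 and 89.8% in IRF10 against 90.0 to 97.9%. Of the 1419 cells of T cell_2 in IRI short 14 d, 693 (48.8%) are named PT in the second annotation and 459 (32.3%) T cell. By library, the share named PT was 41.5% in IRF8 and 52.7% in IRF10, and in control 0.413% in Scl and 22.6 to 29.1% in the others. Without T cell_2, the lymphoid difference was 4.86 points instead of 10.0.

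Mono_1 is named Fibro in the second annotation for 93.0% of its cells in IRF8 and 95.8% in IRF10, and for 75.0 to 99.6% in control. The cells of LOH were divided, in IRI short 14 d into 40.6% named LOH, 35.8% named DCT1, DCT2, 10.1% named DCT1 and 7.96% named DCT2, CNT, CD-PC, and in control into 33.2, 50.0, 2.41 and 9.82% with these names. Of the Myofib cells, 13 of 17 in IRI short 14 d (76.5%) and 15 of 53 in control (28.3%) are named SMC, and in control 32.1% are named GEC, Endo and 24.5% LOH. In contrast, 97.6% of Granul_1, 99.4% of Granul_2, 97.5% of Macro, 96.0% of B cell and 91.6% of IC in IRI short 14 d kept a matching name (Neutro_1, Neutro_2, Macro, B cell and CD-IC).

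The second annotation gave 9 of 19 clusters past the limma threshold. Neutro_1 (4.25), Neutro_2 (4.65), Macro (3.12), Fibro (1.73), SMC (0.95) and B cell (0.87) were higher, and CD-IC (−1.48), PCT (−1.28) and PST (−1.24) were lower, the last 2 named for the proximal convoluted and straight tubule. The cluster named PT did not pass (−0.65, limma adjusted p = 0.118). In IRI short 14 d it holds 693 cells of T cell_2. Of the cells named SMC in IRI short 14 d, 63 came from T cell_2, 37 from T cell_1, 14 from Macro and 13 from Myofib. Each other cluster gave fewer. The cluster GEC, Endo missed the threshold (0.68, adjusted p = 0.0584), as in the first annotation for GEC. With these names immune cells were 42.9% of IRF8 and 31.5% of IRF10 against 4.07 to 12.4% in control. Myeloid cells were 27.8 and 21.7% against 0.528 to 1.82%. With Fibro counted as myeloid, immune cells were 51.1 and 36.1% against 4.86 to 14.3%. The lymphoid difference was 5.45 points with these names and the groups overlapped, with 15.1% in IRF8 and 9.76% in IRF10 against 3.00 to 11.4% in control (exact permutation, adjusted p = 0.257). That of endothelial and stromal cells was 8.67 points with Fibro counted as stromal and 3.51 points with Fibro counted as myeloid.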

How the data were processed

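Mouse kidneys were profiled by droplet single-cell RNA-seq. The authors used Cell Ranger with mm10, kept cells within limits on detected genes and mitochondrial reads, took out doublets, joined the libraries with LIGER and assigned cluster names manually. They deposited a cluster name, a treatment with its day and UMAP coordinates for each cell, in 2 annotations. The values are names, not counts, and the coordinates were not used. Libraries were identified by the prefix of their cell names and grouped by the treatment of their cells.

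Shares per library were compared with limma 3.58.1 (R 4.3.3) on the logit with 0.5 cells added, with 7 group means over 18 libraries and Benjamini-Hochberg adjustment over 18 clusters at 0.05. Classes and ratios were tested by exact permutation of the libraries, two-sided (python 3.11.15), adjusted over 6 each. The limma comparison was tested on simulated data. Intervals are exact binomial (Clopper-Pearson, 95%, scipy 1.17.1), and a count of 0 allows up to 3 cells. All 18 clusters are named. The comparison, classes and ratios were chosen with earlier results of these data known. Alternatives were the arcsine square root, 0.1 or 1 cell added, the centred log-ratio, a filter of 10 cells in 2 libraries, only the 8 libraries, the barcode set as a term, pooling over cells, thinning to 2272 cells, limma on the logit for classes and ratios, the second annotation, norm5 as the only control for classes and ratios, and leaving out each library in turn. Added after seeing the data were norm5 as the only control for clusters, Fibro as myeloid and classes without T cell_2. The values of 1 library of IRI short 1 d by itself are not reported here.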

Additional observations from a re-analysis of the deposited data

Results flagged for a closer look

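LOH was 55.5% of the tubule cells outside the PT in the control library norm5, a value far from the 42.2 to 45.9% of the other control libraries. It was the 1 value that stood apart in 30 sets of 6 control libraries examined with Dixon's criterion, which flags about 1 in 20 sets by chance.

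In 8 cases a cluster of IRI short 14 d differed from another IRI group by a limma test of the difference itself. Mono_2 differed by −2.71 on the logit scale from IRI short 1 d, and Myofib by −1.96 from IRI short 3 d. From IRI long 14 d, LOH differed by 1.52, DCT by 1.44, PC by 1.67, IC by 1.68, Myofib by 1.54 and Granul_2 by −2.36. No explanation was tested for any of these.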

How the results depend on the processing

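No paired analysis was possible because the tables do not tie the libraries to the replicate numbers of the sample titles. Over the alternatives other than leaving out a library, 7 (barcode set as a term) to 12 clusters (arcsine or 1 cell added) differed between IRI short 14 d and control, against 10. Granul_1, Granul_2 and Macro passed in all of these that keep the first annotation and in each fit without a library. The count ran from 5 to 13 when libraries were left out, with 5 without IRF8 and 13 without norm4. Within compartments it was 8 with the arcsine and ran from 2 (without IRF8) to 7 (without norm1 or norm5). Against IRI short 1 d it ran from 0 (without IRF10, for example) to 1 and against IRI short 3 d from 0 (without IRF10) to 2 (without IRF3) and was 0 with the arcsine, where 3 clusters were under 0.05 unadjusted. Against IRI long 14 d it ran from 0 (without IRF12) to 5 (without IRF8). B cell turned to −0.12 under the centred log-ratio.

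Against norm5 alone the differences in points were 31.9 for immune, 28.01 for myeloid, 3.91 for lymphoid, −15.1 for PT, −21.4 for other epithelial and 4.60 for endothelial or stromal cells, −2.92 for PT of tubule cells, −23.9 for PT S1 of PT cells and −5.60 for LOH of tubule cells outside PT. Myeloid was 26.7 points when cells were pooled. Limma on the logit passed the threshold where the exact test did not: immune 2.18, myeloid 3.08, lymphoid 1.02, PT −1.71 and myeloid of immune cells 1.82. The cause of these changes was not tested. Few cells limit Podo, Myofib, Mono_2 and the granulocytes of control, and only 2 libraries limit every comparison.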
